A study of Mus musculus with 6 samples.

Results

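The 35 genes described here make sterols and fatty acids or control that synthesis, and were followed in EMT6, a mammary carcinoma line of the mouse grown in culture. They were chosen by symbol, as the genes of sterol synthesis, its SREBP control, sterol transport and fatty acid synthesis, with earlier results of the same libraries in view. All 35 were found among the 53465 genes of the table, and all 35 were among the 14217 genes that passed the filter on low counts. The cells were kept for more than 4 weeks with 0.5 μg/ml of an antibody against PD-L1 (PTR vitro, 3 libraries) or with the same dose of an isotype control antibody (P vitro, 3 libraries), both in RPMI with serum. PD-L1, encoded by Cd274, is a surface protein that restrains T cells. Cd274 RNA was at 17.2 ± 1.18 CPM in P vitro cells and 17.97 ± 0.600 CPM in PTR vitro cells (mean ± SD, n = 3, edgeR adjusted p = 0.732). CPM are counts scaled to library size and matched between libraries by the upper quartile. The labels do not say whether the 3 libraries of a group were separate cultures, and the study treats its replicates as technical unless stated, so p-values cover only the spread between these libraries.

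Cells build cholesterol from acetyl-CoA through mevalonate, isoprenoid units, squalene and lanosterol. The transcription factors SREBP1 and SREBP2 (genes Srebf1 and Srebf2) are held in the endoplasmic reticulum by SCAP and the INSIG proteins while sterols are plentiful, and are carried to the Golgi, cleaved and released to the nucleus when sterols run low. SREBP2 mainly drives genes of sterol synthesis and SREBP1 those of fatty acid synthesis, Insig1 is itself an SREBP target, and the efflux pumps Abca1 and Abcg1 are driven instead by the oxysterol receptors LXR.

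Of the tested genes, 35 (0.246%) had an edgeR adjusted p below 0.05 between the groups, 14 higher and 21 lower in PTR vitro cells, and none of these was one of the 35 lipid genes. Total counts ran from 17757341 to 32426739 per library, and the common biological coefficient of variation was 5.00%. Markers of other cells were near 0: the 5 immune markers and the 3 adipocyte markers had at most 1 count in any library, and the 3 endothelial markers at most 4. Of the 6 epithelial markers, Krt8 and Krt18 were abundant, Krt14 (119 to 277 counts) and Epcam (30 to 70 counts) were low, and Cdh1 and Krt5 had at most 4 counts. Of the 5 mesenchymal markers, Vim, Fn1 and Col1a1 were abundant, Zeb1 had 235 to 468 counts and Cdh2 had at most 2. Both cadherins were thus near 0.

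Promoters of 3 control points of the pathway are shown first, since SREBP2 is known to act at such sequences together with NF-Y and Sp1. RefSeq promoter sequence (GRCm38.p6, 250 bases before to 50 bases after the start) was at hand for 27 of the 35 genes. Each run below holds the 250 bases before the start, on the plus strand. Capitals mark the sterol regulatory element core, searched as TCACNCCA or with a following C, and the NF-Y box CCAAT, which here reads ATTGG.
Hmgcs1, chr13:119690101-119690350: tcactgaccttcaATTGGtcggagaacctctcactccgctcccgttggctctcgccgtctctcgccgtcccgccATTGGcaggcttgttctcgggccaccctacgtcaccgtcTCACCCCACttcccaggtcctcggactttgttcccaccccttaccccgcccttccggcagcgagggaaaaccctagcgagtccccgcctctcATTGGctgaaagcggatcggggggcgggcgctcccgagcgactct
Srebf2, chr15:82147019-82147268: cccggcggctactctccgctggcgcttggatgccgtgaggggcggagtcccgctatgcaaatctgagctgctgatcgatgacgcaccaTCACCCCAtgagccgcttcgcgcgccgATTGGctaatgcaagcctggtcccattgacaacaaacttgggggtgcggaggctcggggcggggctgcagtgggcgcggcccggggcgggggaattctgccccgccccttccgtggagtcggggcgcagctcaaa
Insig1, chr5:28071162-28071411: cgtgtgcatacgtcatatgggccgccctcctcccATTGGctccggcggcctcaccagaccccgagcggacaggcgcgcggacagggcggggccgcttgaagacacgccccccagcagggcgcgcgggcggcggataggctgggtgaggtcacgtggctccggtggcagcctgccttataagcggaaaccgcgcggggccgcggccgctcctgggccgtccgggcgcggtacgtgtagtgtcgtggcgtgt
Hmgcs1, the enzyme that makes HMG-CoA, had the core 137 bases before the start, with NF-Y boxes 237, 176 and 45 bases before it. Srebf2 had the core 162 bases and an NF-Y box 135 bases before its start, and Insig1 had 1 NF-Y box and neither form of the core in this window.

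The 27 genes had 35 promoter entries, and a gene counted if any of its entries held the motif on either strand. The 9-letter core TCACNCCAC was found in 1 gene (Hmgcs1), or 3.70%, against 1.44% of all 27025 genes with a RefSeq promoter. The shorter TCACNCCA, which holds the first 8 of those letters, was found in 3 genes (Hmgcs1, Msmo1 and Srebf2), or 11.1%, against 4.97% of all. CCAAT was found in 22 genes (81.5%), against 41.1% of all genes with a promoter and 43.3% of the tested genes among them. The Sp1 box GGGCGG was found in 23 genes (85.2%), against 38.2% of all genes with a promoter and 68.3% of the tested genes among them. The genes without CCAAT in this window were Acat2, Scap, Abca1, Acaca and Elovl6. These are descriptions of letters in a short window and do not show binding.

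The RNA levels of the enzymes differed widely along the pathway. Per kilobase of exon (all annotated exons of a gene merged), the fatty acid desaturases Scd2 and Scd1 had the highest levels in P vitro cells, 148 and 69.8 CPM per kb. Among sterol enzymes, squalene epoxidase Sqle, which commits squalene to sterols, was highest at 59.7 CPM per kb, followed by the sterol methyl oxidase Msmo1 at 44.5 and by lanosterol demethylase Cyp51 at 34.9. The lowest sterol enzyme was Tm7sf2, a sterol reductase, at 0.599 CPM per kb, and the lowest of the 35 genes was the efflux pump Abca1 at 0.0727 CPM per kb. Counts followed: the mean count per library was 20.3 for Abca1 and 69.2 for Tm7sf2, and at least 197 for each of the other 33 genes.

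The first comparison asked how these genes differ between cells kept with the PD-L1 antibody and controls. In PTR vitro cells, none of the 35 genes was called higher or lower by edgeR, and log2 fold changes (PTR vitro over P vitro) ran from -0.30 for Mvd to 0.16 for Abcg1. The count of calls was also 0 with DESeq2 and with limma-voom. Before adjustment, 6 genes had an edgeR p below 0.05 (11.4% of all tested genes did), 4 had one with DESeq2 and 5 with limma-voom. The edgeR count was 13 without P vitro library 2, 2 without P vitro library 3 and 3 without PTR vitro library 3. Of the 6, 5 had lower values in PTR vitro cells (Mvd, Srebf1, Srebf2, Scap and Fasn), where 6.13% of all tested genes were in this class, and 1 had higher values (Npc2), where 5.26% were. The 35 genes had a median log2 fold change of -0.02, beside -0.00 over all tested genes, and 22 of them (62.9%) had a value below 0, beside 51.5% of all tested genes. Since the list was assembled with these contrasts known, the counts describe it and carry no test.

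**Figure D1:**
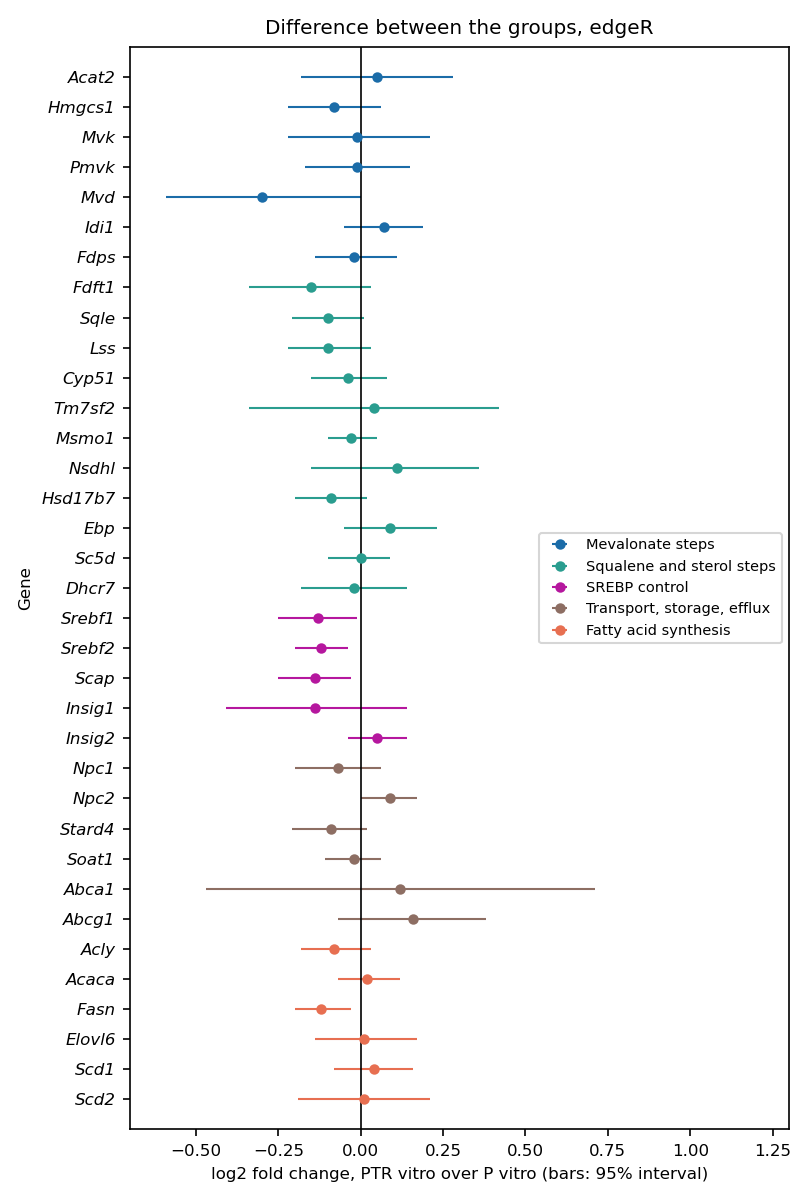
Log2 fold change of each of the 35 genes, PTR vitro over P vitro (x axis), with the 95% interval from edgeR (bars), 3 libraries per group, coloured by role. Most intervals span 0, those of Mvd, Srebf1, Srebf2, Scap and Fasn lie below it and that of Npc2 lies above it, and none of these genes was called after adjustment.

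The genes of SREBP control had the lowest class median log2 fold change, at -0.13 over 5 genes (-0.09 without P vitro library 1). Their summed level was 598, 577 and 571 CPM in the P vitro libraries 1, 2 and 3 and 558, 544 and 535 CPM in the PTR vitro libraries, or 582 ± 13.7 against 545 ± 11.6 CPM (0.937 of the control). The 2 groups of sums did not overlap. For single genes the groups did not overlap, in either direction, in 17.6% of all tested genes. The sums of the transport genes did not overlap either, in the other direction, and Npc2 held most of those sums.

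Srebf2 (ENSMUSG00000022463.7, chr15:82147181-82205379), which encodes SREBP2, contributes most of the sum of the SREBP control genes. It was at 337, 339.7 and 319.9 CPM in P vitro libraries and 311, 301.5 and 305 CPM in PTR vitro libraries. Every PTR vitro library was below every P vitro library, a log2 fold change of -0.12 (SE 0.0353, 95% interval -0.20 to -0.04), and the edgeR adjusted p of 0.226 was the smallest of the 35 genes.

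Scap (ENSMUSG00000032485.14, chr9:110333288-110384950), the escort protein that carries SREBPs to the Golgi, was at 60.6, 59.0 and 62.1 CPM against 53.4, 58.4 and 52.5 CPM. Its groups did not overlap, with PTR vitro library 2 close to P vitro library 2 (log2 fold change -0.14, SE 0.0493, edgeR adjusted p 0.298). Srebf1 (ENSMUSG00000020538.15, chr11:60199089-60222581), which encodes SREBP1, was at 46.7, 41.6 and 44.2 CPM against 40.7, 41.2 and 38.6 CPM. Its groups were separated by less than 1 CPM, between P vitro library 2 and PTR vitro library 2 (log2 fold change -0.13, SE 0.0536, edgeR adjusted p 0.379).

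The groups overlapped for both INSIG retention proteins. Insig1 (ENSMUSG00000045294.11, chr5:28071363-28078662) was at 47.6, 33.3 and 46.7 CPM in P vitro cells and 42.7, 38.3 and 33.7 CPM in PTR vitro cells. Both groups held a low library near 33 CPM, and its log2 fold change of -0.14 was as low as that of Scap but had a 95% interval of -0.41 to 0.14. Insig2 was at 103 ± 3.77 CPM and 106 ± 2.76 CPM, with a log2 fold change of 0.05 (95% interval -0.04 to 0.14).

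Of the 7 genes of the mevalonate steps, 5 had values below 0 and 2 above, with a median log2 fold change of -0.01. The median was above 0 without P vitro library 1 (0.04), PTR vitro library 2 (0.03) or PTR vitro library 3 (0.02), and was -0.08 without PTR vitro library 1. Mvd (ENSMUSG00000006517.5, chr8:122433601-122443422), which decarboxylates mevalonate diphosphate, was at 9.46, 6.98 and 8.81 CPM in P vitro libraries and 7.53, 6.14 and 6.73 CPM in PTR vitro libraries. P vitro library 2 fell inside the range of the other group, and the log2 fold change of -0.30 (95% interval -0.59 to -0.00, edgeR adjusted p 0.430) was the lowest of the 35. Hmgcs1 (ENSMUSG00000093930.2) was at 161, 133 and 160.4 CPM against 146, 142 and 142 CPM, so that P vitro library 2 was the lowest of all 6 and the other P vitro libraries the highest. Acat2, a cytosolic thiolase at the entry to the pathway, had a log2 fold change of 0.05, and the isopentenyl diphosphate isomerase Idi1 one of 0.07. Mevalonate kinase Mvk and phosphomevalonate kinase Pmvk were both at -0.01, and farnesyl diphosphate synthase Fdps was at -0.02.

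Of the 11 genes from squalene to cholesterol, 8 had values below 0 and 3 above, with a median of -0.03. The median was 0.02 without P vitro library 1, -0.08 without P vitro library 2, and -0.07 without PTR vitro library 1. Sqle was at 343, 305 and 344 CPM in P vitro cells and 321, 309 and 296 CPM in PTR vitro cells, and squalene synthase Fdft1 was at 79.3, 62.1 and 76.4 CPM against 70.7, 62.5 and 61.3 CPM. For both, P vitro library 2 sat among the PTR vitro libraries (log2 fold changes -0.10 and -0.15). The 17-beta-hydroxysteroid dehydrogenase Hsd17b7, which acts as a sterol 3-ketoreductase, was at 34.2, 32.6 and 34.9 CPM against 32.5, 32.1 and 30.7 CPM, the only sterol enzyme whose groups did not overlap (log2 fold change -0.09, edgeR adjusted p 0.549). Lanosterol synthase Lss was at -0.10 and Cyp51 at -0.04. Msmo1 varied least, at 273 ± 2.78 and 268 ± 4.07 CPM, a log2 fold change of -0.03 (95% interval -0.10 to 0.05). The highest values were 0.11 for the sterol dehydrogenase Nsdhl and 0.09 for the isomerase Ebp, with intervals of -0.15 to 0.36 and -0.05 to 0.23. The value of Nsdhl was -0.04 without PTR vitro library 1 and 0.0055 without P vitro library 2. Tm7sf2 was at 0.04, the desaturase Sc5d at -0.00 and the last reductase, Dhcr7, at -0.02.

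Of the 6 transport genes, 3 had values above 0 and 3 below. Npc2 (ENSMUSG00000021242.9, chr12:84754562-84773152), a soluble lysosomal protein that hands cholesterol to NPC1, was at 256, 238 and 251 CPM in P vitro libraries and 270.3, 265 and 257 CPM in PTR vitro libraries. It was the only one of the 35 genes whose PTR vitro libraries all lay above the P vitro libraries (log2 fold change 0.09, SE 0.0384, edgeR adjusted p 0.414). The efflux pump Abcg1 was at 8.09, 10.1 and 8.48 CPM against 9.41, 10.1 and 10.4 CPM, with P vitro library 2 inside the other group (log2 fold change 0.16, edgeR adjusted p 0.601). Abca1 was at 0.754 ± 0.127 and 0.821 ± 0.130 CPM, and its interval of -0.47 to 0.71 spans differences of either sign, so that none was detectable at this depth. The lysosomal exporter Npc1 was at -0.07, the sterol carrier Stard4 at -0.09 and the cholesterol esterifying enzyme Soat1 at -0.02.

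Of the 6 fatty acid genes, 4 had values above 0 and 2 below. Without PTR vitro library 1 all 6 were below 0, and the class median of 0.01 became -0.07. It was also -0.07 without P vitro library 2, and it was 0.03 to 0.05 when any other single library was left out. Fatty acid synthase Fasn (ENSMUSG00000025153.9, chr11:120805846-120824547) was at 140.1, 135 and 140.2 CPM in P vitro cells and 131, 128 and 124 CPM in PTR vitro cells. Every PTR vitro library was below every P vitro library (log2 fold change -0.12, SE 0.0382, edgeR adjusted p 0.266). ATP citrate lyase Acly, which supplies cytosolic acetyl-CoA, had a log2 fold change of -0.08, while acetyl-CoA carboxylase Acaca, the elongase Elovl6 and the desaturases Scd1 and Scd2 had values of 0.02, 0.01, 0.04 and 0.01. Across the 35 genes the groups did not overlap for 5 genes lower in PTR vitro cells, where 9.33% of all tested genes were in this class, and for 1 gene higher, where 8.27% were.

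The second comparison set single libraries side by side, because the summed levels of the sterol and fatty acid enzymes differed more between libraries of a group than between the group means. Among the 18 enzymes of the mevalonate, squalene and sterol steps, P vitro library 1 was above the mean log2 CPM of its group for 18 of 18, and PTR vitro library 1 for 18 of 18. The share of all tested genes above the group mean was 52.7% and 55.2% in these libraries. P vitro library 2 was above the group mean for 1 of the 18 enzymes (Pmvk) and PTR vitro library 3 for 1 (also Pmvk), where 44.4% and 46.3% of all tested genes were.

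**Figure D2:**
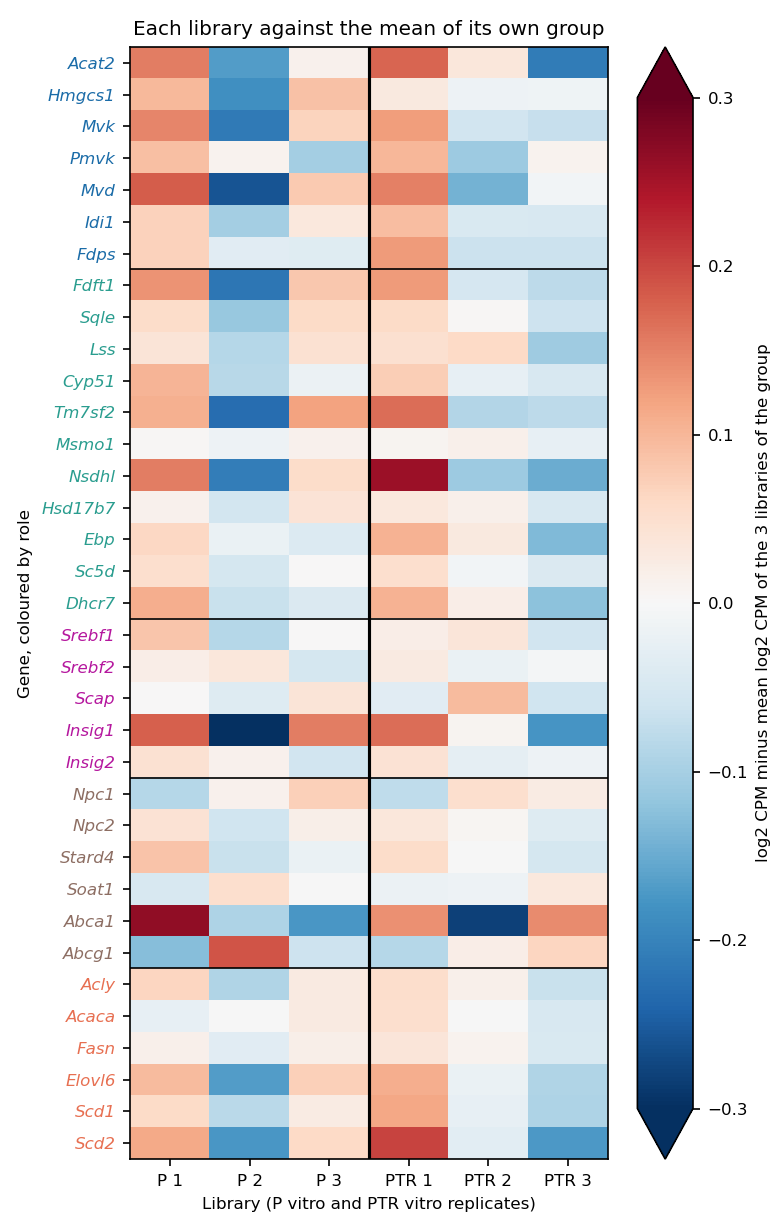
Log2 CPM of each gene (rows, coloured by role) in each library (columns) minus the mean of the 3 libraries of its group, with the colour scale clipped at 0.3 in each direction. P 1 and PTR 1 are red for nearly all sterol and fatty acid enzymes, and P 2 and PTR 3 are blue.

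P vitro library 2 had the lowest P vitro level for 15 of the 18 enzymes and 25 of the 35 genes, beside 42.1% of all tested genes. PTR vitro library 1 had the highest PTR vitro level for 16 of the 18 enzymes and 27 of the 35 genes, beside 41.1% of all tested genes. Both held together for 21 of the 35 genes (60.0%), beside 23.6% of all tested genes. These libraries were singled out after the values were seen, so the counts are a description. The counts of 25 and 27 genes were the same with TMM scaling and with no scaling factor.

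The sums show the sizes. The 18 enzymes together were at 1601, 1438 and 1558 CPM in P vitro libraries and 1553, 1468 and 1427 CPM in PTR vitro libraries. The group means were 1532 ± 84.6 and 1483 ± 64.3 CPM, a ratio of 0.968 that is within the spread between libraries. The 6 fatty acid genes summed to 1672, 1447 and 1629 CPM against 1743, 1552 and 1444 CPM, with means of 1582 ± 120 and 1579.7 ± 151 CPM. The transport genes summed to 476, 464 and 474 CPM in P vitro libraries and 486, 482 and 476 CPM in PTR vitro libraries. All 3 PTR vitro sums lay above the P vitro sums, by less than 1 CPM at the nearest (471 ± 6.15 and 481 ± 4.92 CPM). Npc2 alone was at 248 ± 9.29 and 264 ± 6.60 CPM. Npc1, Stard4 and Soat1 had log2 fold changes below 0, and Abca1 and Abcg1, both low in level, had values above 0. The higher sum is thus that of Npc2 and does not describe the class.

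**Figure D3:**
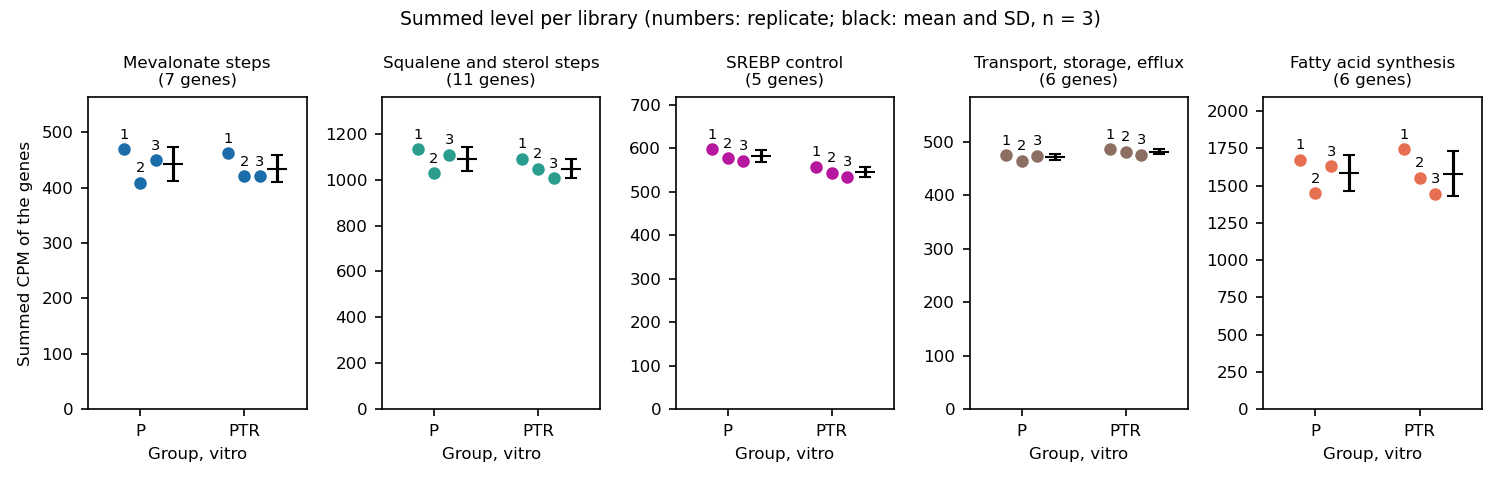
Summed CPM of each class of genes (y axis, from 0) in each library (points, numbered by replicate), with the mean and SD of the 3 libraries of a group in black. The sums of sterol and fatty acid enzymes spread within each group. The SREBP control genes are the class in which the PTR vitro libraries lie below the P vitro libraries without overlap. The transport sums lie above, and Npc2, which holds most of them, carries that difference.

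The genes with the widest range over the 6 libraries were Mvd, whose highest library was 1.54 times its lowest, Nsdhl (1.46), Insig1 (1.43), Abca1 (1.36) and Tm7sf2 (1.34). Nsdhl (ENSMUSG00000031349.4, chrX:72918557-72958514) was at 31.3, 24.3 and 29.2 CPM in P vitro libraries and 35.6, 27.6 and 26.9 CPM in PTR vitro libraries, highest in PTR vitro library 1 and lowest in P vitro library 2. Scd2 (chr19:44293674-44306864), the most abundant gene of the list, was at 875, 716 and 842 CPM against 935, 796 and 722 CPM and had the same highest and lowest libraries. At the other end, Msmo1 ranged 1.05 times, and Sc5d, Soat1 and Acaca ranged 1.07 times each.

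Set against the other libraries of the same group, P vitro library 2 held a median of 90.7% of the level of P vitro libraries 1 and 3 over the 18 enzymes, 91.4% over the fatty acid genes and 98.5% over all tested genes. Insig1 was at 70.8%, Mvd at 76.4%, Tm7sf2 at 78.8%, Fdft1 at 79.8%, Mvk at 80.2% and Hmgcs1 at 82.6%. PTR vitro library 1 held a median of 111% of the level of PTR vitro libraries 2 and 3 over the enzymes, 109% over the fatty acid genes and 101% over all tested genes. Nsdhl was at 131%, Scd2 at 123%, Acat2 at 120%, and Insig1 and Tm7sf2 at 119%.

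Some genes did not follow. Abcg1 lay the other way, at 122% in P vitro library 2 and 91.5% in PTR vitro library 1, as did Soat1 (105% and 98.3%) and Npc1 (101% and 92.4%). Srebf2 was at 103% in both contrasts, and Insig2 at 101% and 104%. The median within-group SD of log2 CPM was 0.0973 over the 18 enzymes and 0.0854 over the 35 genes, beside 0.0896 over all tested genes.

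**Figure D4:**
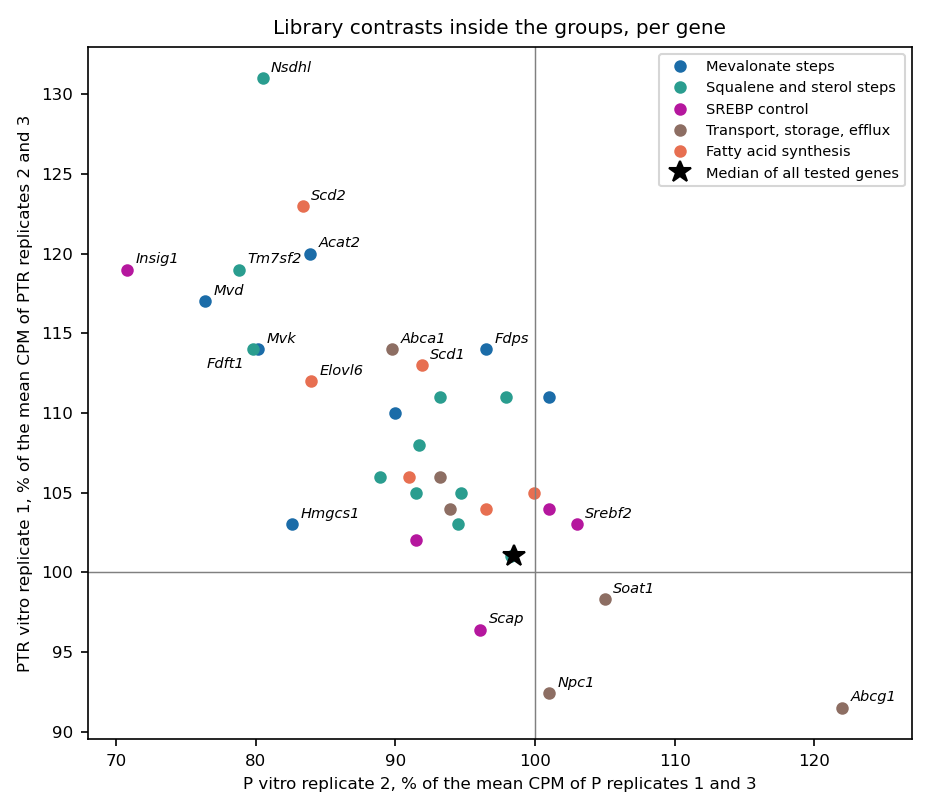
Level of each gene in P vitro library 2 as a percentage of the mean of P vitro libraries 1 and 3 (x axis) against its level in PTR vitro library 1 as a percentage of the mean of PTR vitro libraries 2 and 3 (y axis), coloured by role. Most genes lie to the left of 100% and above 100%, Insig1 and Nsdhl farthest, while Abcg1, Soat1 and Npc1 lie in the opposite corner.

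In PTR vitro cells the enzyme sums had the same order as library depth, with 32426739 counts in library 1, 28122430 in library 2 and 17757341 in library 3. In P vitro cells library 2, low for these genes, was the deepest, at 30115549 counts, beside 23417980 and 24362143 in libraries 1 and 3. The part of depth in these values was not tested. No label names a batch, a culture density or a harvest day, so what the libraries with high or low values share was not tested.

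Genes around the pathway were read from 5 lists, 81 genes in all, of which 79 were tested. With edgeR 0 of the 79 were called, and 6 (7.59%) were higher and 11 (13.9%) lower in PTR vitro cells at an unadjusted p below 0.05, beside 5.26% and 6.13% of all tested genes. These shares over all tested genes are also the background of the counts per list that follow. DESeq2 called Rabggtb of isoprenoid use (adjusted p 0.0236) and Ch25h of sterol uptake (adjusted p 0.0243), and limma-voom called 0 of the 79. In the list of SREBP processing and sterol-regulated degradation (10 genes), 3 were lower and 0 higher at an unadjusted p below 0.05. The lowest value there was that of Mbtps1, the site-1 protease that makes the first cut in SREBPs, at 126.5, 121 and 120.2 CPM against 112.4, 107 and 104 CPM. Its groups did not overlap (log2 fold change -0.18, SE 0.0421), and its edgeR adjusted p was 0.139. The highest value of the list was 0.09 for Rnf145, an E3 ligase.

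For isoprenoid use (14 genes), 1 was higher and 1 lower at an unadjusted p below 0.05. Rabggtb, the beta subunit of the Rab geranylgeranyl transferase, was at 118, 112.3 and 119 CPM in P vitro cells and 131, 132 and 133 CPM in PTR vitro cells (log2 fold change 0.18, edgeR adjusted p 0.0899), and the alpha subunit Rabggta was at -0.17 (edgeR adjusted p 0.265). For sterol uptake, transfer and oxysterols (18 of 19 tested), 2 were higher and 4 lower. Among genes averaging 50 counts or more, the highest log2 fold change was 0.36 for Mylip, an LXR-driven E3 ligase for lipoprotein receptors, and the lowest was -0.28 for Cyp27a1, which makes 27-hydroxycholesterol, with edgeR adjusted p values of 0.250 and 0.210. Ch25h, which makes 25-hydroxycholesterol and is named here after its values were seen, was at 67.0, 58.7 and 58.9 CPM against 52.2, 51.8 and 49.7 CPM. Its groups did not overlap (log2 fold change -0.26, edgeR adjusted p 0.102). For fatty acid elongation, desaturation and supply (20 genes), 0 were higher and 2 lower, the values running up to 0.13 for Hacd2 and down to -0.25 for the acyltransferase Gpam. For fatty acid oxidation (17 of 18 tested), 3 were higher and 1 lower, and the highest and lowest log2 fold changes among genes averaging 50 counts or more were those of the acyl-CoA dehydrogenases Acadm (0.19) and Acads (-0.16). Cpt1b, a carnitine palmitoyltransferase, averaged 49.8 counts and is also named after its values were seen. It was at 1.54, 1.10 and 2.03 CPM against 2.07, 2.33 and 2.69 CPM, with no overlap (log2 fold change 0.60, edgeR adjusted p 0.363). Of the summed levels of the 5 lists, those of isoprenoid use lay higher in PTR vitro cells without overlap (681 ± 4.11 and 705 ± 14.0 CPM) and those of sterol uptake lower (1247 ± 15.1 and 1210.2 ± 4.52 CPM). Rabggtb, at 116 ± 3.52 and 132 ± 0.755 CPM, supplied the largest part of the isoprenoid difference. In that list 8 genes had log2 fold changes above 0 and 6 below.

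The library arrangement was weaker in these lists. P vitro library 2 was lowest and PTR vitro library 1 highest of their groups for 22 of the 79 genes (27.8%), beside 60.0% of the 35 genes and 23.6% of all tested genes. The isoprenoid list held 1 such gene of 14 and the list of fatty acid elongation, desaturation and supply 8 of 20.

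Several of the genes have near-identical relatives between which estimated counts can be split. Acat2 and its neighbour Acat3 shared long stretches of transcript, and Acat3 held 38.2% of their sum. The sum had a log2 ratio of 0.01, beside 0.05 for Acat2 alone. Pseudogenes held 11.5% of the sum with Fdps, 7.88% with Acaca, 5.78% with Idi1 and 4.11% with Fdft1, and the log2 ratios of these sums were -0.03, 0.00, 0.05 and -0.17. Scd1 and Scd2 together were at 1152.5 ± 101 CPM and 1167.7 ± 134 CPM. Acat2 also shares a similar stretch of 445 bases (98.7% identity) with Tcp1. Exons of Fdft1, Tm7sf2 and Npc1 overlap those of Ctsb, Vps51 and Rmc1, and Hmgcs1 overlaps an antisense gene. Whether the counts were assigned by strand is not stated.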

How the data were processed

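Polyadenylated RNA of 6 libraries was sequenced from stranded preparations. The authors aligned reads to GRCm38 with STAR 2.6.0a and deposited expected counts per gene from RSEM 1.3.1, per their processing notes, which also name FastQC 0.11.5. These estimated counts, 12.5% to 13.8% of them not whole, were rounded. Genes were filtered with filterByExpr (minimum count 10, minimum total 15), scaled by the upper quartile and tested in edgeR 4.0.16 (R 4.3.3) by quasi-likelihood F, group as the only term, with Benjamini-Hochberg adjustment over all 14217 tested genes and a threshold of 0.05. Standard errors came from the F statistic. Symbols, gene positions and exon lengths came from GENCODE on GRCm38, promoters from RefSeq GRCm38.p6. Near-identical transcripts were searched with BLAST+ 2.17.0 (95% identity or more across 200 bases or more, and 600 for the sums over copies). The 35 genes, the companion lists and the markers were chosen with earlier results of these data known. All 35 genes are named, and of the companion lists those called by edgeR (0) and the largest rise and fall per list among genes averaging 50 counts or more. Ch25h and Cpt1b were named after their values were seen. The fit was also run on counts simulated with the common variation for all genes. The outcome is not given here, and no result rests on it. Alternatives were TMM, no scaling factor, DESeq2 1.42.0, limma-voom (limma 3.58.1), no filter, at least 10 counts in every sample, a replicate block and leaving out each library. Sums over copies, the 8-letter motif and counts within groups of libraries were added after seeing the data. A comparison of protein sequences was planned and not run.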

Additional observations from a re-analysis of the deposited data

How the results depend on the processing

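The count of called genes among the 35 was 0 in all 13 alternatives to the edgeR fit. With the replicate number as a block it was 0 as well, with a median log2 fold change of -0.0236 and 7 genes at an unadjusted p below 0.05, beside 6 without the block. The correlations of same-numbered libraries were 0.109, 0.095 and -0.0556, and those of differently numbered libraries ran from -0.158 to 0.0674. No label pairs the libraries, and whether the numbers do was not tested. Over all tested genes the block gave 68 calls, DESeq2 111, no filter 400 and a minimum of 10 counts in every sample 54, beside 35. Leaving out 1 library gave 8 to 64 calls over all tested genes.

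Of the 35 genes, 22 had a log2 fold change below 0, and leaving out 1 library gave 16 (without P vitro replicate 1) to 29 (without PTR vitro replicate 1). Their median ran from -0.0725 (without PTR vitro replicate 1) to 0.0174 (without P vitro replicate 1), a change of sign, and from -0.0242 to -0.0069 over the other alternatives. Genes at an unadjusted p below 0.05 numbered 13 when P vitro library 2 was left out, 2 when P vitro library 3 was and 3 when PTR vitro library 3 was. Single genes turned sign in 29 of 210 comparisons (each of the 35 genes in each of 6 fits that left out a library), over 14 genes, and in 5 of 245 other comparisons, which were those of Mvk and Sc5d. Without a filter Rabggtb, Mbtps1 and Ch25h were called, 1 gene of each of their lists (adjusted p 0.0154, 0.0216 and 0.000454). Within 200 bases before the start, CCAAT was found in 20 of the 27 genes with a promoter and GGGCGG in 21. Depth limits Abca1 and Tm7sf2 most.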
